A study of Mus musculus with 6 samples.

Results

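The AMPA and kainate receptor genes described here are Gria1, Gria2, Gria4 and Grik1 to Grik5, which encode subunits of ionotropic glutamate receptors. Their CpG methylation was measured in the dentate gyrus of mice kept in an enriched environment (ENR) or in standard housing (STD). A measured cytosine belonged to a gene when it lay between 1 kb upstream of the gene start and the gene end, by the GENCODE M21 gene records on the mm10 genome. This rule gave 695 sites of 890041 in the whole data set, or 0.0781%, with 147 sites in the 3 AMPA and 548 in the 5 kainate receptor genes. Gria3, the fourth AMPA subunit gene, lies outside this set and is given with related genes further on. The rule itself uses no methylation value, but the genes were picked with earlier results of these data known.

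All 6 animals were female C57BL/6JRj mice aged 4.5 months, with 3 STD and 3 ENR mice and 1 library per mouse. By the study's methods, enriched mice shared an enclosure with tunnels and toys and STD mice lived in ordinary cages, so that the effects of housing and of a shared cage cannot be told apart. Reduced representation bisulfite sequencing (RRBS) cuts DNA at CCGG, converts unmethylated cytosines with bisulfite, and gives the methylated share of reads at each cytosine as a percentage. The dentate gyrus was micro-dissected and not sorted into cell types. A shift in the mixture of cells and a shift within cells therefore cannot be told apart in these percentages.

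AMPA receptors are tetramers that open within milliseconds of glutamate binding and carry most fast excitatory current. Gria1 encodes the subunit best known for its delivery to synapses during potentiation, Gria2 the subunit whose edited form keeps calcium out of the channel, and Gria4 a subunit known from interneurons and early development. Kainate receptors are a sister family that acts on both sides of the synapse and is prominent at the mossy fibre terminals of dentate granule cells. Grik1, Grik2 and Grik3 encode subunits that can form channels by themselves, whereas Grik4 and Grik5 encode the high-affinity subunits that need one of them as a partner. In mammalian genes, CpG-rich promoters are generally free of methylation, while CpG sites inside transcribed bodies are mostly methylated.

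Libraries were first compared with each other. Over all sites the library means were between 21.3% and 24.3%, and the library numbered 3 was the lowest in each group. Over the 470 sites in the bodies of the receptor genes, the STD libraries were at 34.9%, 34.0% and 29.1% and the ENR libraries at 34.1%, 33.1% and 28.0%. At the 138 receptor gene sites with a mean between 20% and 80%, they were at 54.9%, 51.1% and 39.6% in STD and at 52.6%, 49.7% and 36.0% in ENR. STD replicate 3 was the lowest STD library in the body of 8 of 8 genes and ENR replicate 3 the lowest ENR library in 6 of 8. Results that rest on these libraries are given below with and without them, and their part in other results was not tested. Among genes typical of cell types, promoters of 5 granule neuron genes (Prox1, C1ql2, Dsp, Calb1 and Neurod1) had mean methylation between 0.861% and 1.97%. Promoters were measured in 5 genes typical of other cells in or near the dentate gyrus. They were at 0.982% in Bok, 1.97% in Wfs1, 4.50% in Mbp, 5.03% in Cldn5 and 44.4% in Aldh1l1. The levels of the 2 lists overlapped, and methylation by itself does not show which cells were present.

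RRBS covered the 8 genes unevenly. Grik4 (chr9:42518135-42944493, ENSMUSG00000032017.14) held 198 sites, Grik3 (chr4:125490700-125714173, ENSMUSG00000001985.9) held 182 and Grik2 (chr10:49094833-49788766, ENSMUSG00000056073.16) held 102. Gria2 (chr3:80681450-80802835, ENSMUSG00000033981.14) held 79 sites, Grik5 (chr7:25009849-25072346, ENSMUSG00000003378.9) held 49 and Gria1 (chr11:57011387-57330244, ENSMUSG00000020524.16) held 42. Gria4 (chr9:4417896-4796234, ENSMUSG00000025892.16) and Grik1 (chr16:87895900-88290265, ENSMUSG00000022935.16) had the fewest, with 26 and 17 sites. All 695 sites were a CpG in the reference genome. Of these sites 225 lay within 1 kb of the gene start, called the promoter here, and 470 lay further downstream, called the body. Island-like sequence, meaning 201 bases around the site with a G and C share of 50% or more and a CpG frequency of 0.6 or more of that expected from its bases, held 41.7% of the receptor gene sites and 56.5% of all sites. Sites below 10% made up 60.9% of the receptor gene sites (63.7% of all sites), sites between 20% and 80% made up 19.9% (14.6% of all sites), and sites above 80% made up 11.7% (15.5% of all sites).

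Promoters of all 8 genes were almost unmethylated. Mean levels over 6 mice ran from 1.07% in Grik2 and 1.28% in Gria4 to 4.95% in Grik1 and 5.32% in Gria1, with Grik3 at 1.65%, Gria2 at 1.66%, Grik4 at 2.47% and Grik5 at 2.61%. The median over the 8 genes was 2.06%, compared with 1.80% over 17988 genes with at least 3 promoter sites. Neighbours in this order overlapped in every case, and no neighbouring pair kept its order in all 6 mice. The sites grouped into 13 promoter clusters (3 or more sites, each at most 100 bases from the next), and all 13 had means below 10%, between 0.953% and 6.47%.

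The Gria2 start illustrates such a sequence. Its largest promoter cluster held 31 sites across 506 bases and was at 0.848%, 1.36% and 1.06% in STD and at 1.80%, 1.27% and 1.40% in ENR. All 6 values were below 2%. The 250 bases upstream of its RefSeq start (GRCm38, minus strand) held 19 CpGs. The 12 that were measured had a mean of 0.625% and are shown in capitals to give the density of CpGs behind the low level.
Gria2 chr3:80802836-80803085: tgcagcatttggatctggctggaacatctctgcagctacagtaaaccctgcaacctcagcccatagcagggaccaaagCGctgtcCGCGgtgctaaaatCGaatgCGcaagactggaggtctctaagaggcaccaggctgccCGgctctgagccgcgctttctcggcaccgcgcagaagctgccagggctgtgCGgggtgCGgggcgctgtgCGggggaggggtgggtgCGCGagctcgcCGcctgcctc
Of the 8 genes, 6 had a RefSeq promoter window from 250 bases before to 50 bases after the start (Gria2, Gria4, Grik2, Grik3, Grik4 and Grik5). Grik3 held 50 CpGs in this window, more than 99.1% of 32851 mouse promoters, and Grik4 held 42. Gria2 and Grik2 held 26 each, Gria4 held 17 and Grik5 held 10, against a median of 7. These counts describe sequence, since the measured promoter sites lay partly or wholly outside the windows. Of the 42 CpGs in the 250 bases upstream of the Grik3 start, 0 were measured. The RRBS cutting motif CCGG, which reads the same on both strands, occurred in 5 of these 6 windows and in 52.8% of all such windows. Gria4 was the window without it.

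Neighbouring genes share some of these promoters. All 24 promoter sites of Grik5 also fell in the region of Zfp574, which starts head to head with it, and 39 sites of Grik2 fell in that of Gm48123. Values at these starts belong to both genes of each pair.

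Gene bodies differed widely. Gria4, with only 5 body sites, was at 75.7%, 81.4% and 73.2% in STD and at 71.7%, 71.2% and 74.9% in ENR. Grik1, with 12 sites, was at 72.5%, 75% and 69.0% in STD and at 72.3%, 72.2% and 71.6% in ENR. These were the most methylated bodies, and their ranges over mice overlapped. Gria1, with 35 sites, was at 49.2%, 44.6% and 36.6% in STD and at 44.2%, 46.4% and 35.0% in ENR. Grik4, with 178 sites, was at 41.7%, 41.0% and 33.0% in STD and at 41.0%, 40.4% and 33.2% in ENR. Grik3, with 105 sites, was at 38.5%, 37.1% and 34.1% in STD and at 36.7%, 32.7% and 28.8% in ENR. The ranges of Gria1, Grik4 and Grik3 overlapped, although Gria1 was above Grik4 in 6 of 6 mice and Grik4 above Grik3 in 5 of 6. Grik5, with 25 sites, was at 29.9%, 28.6% and 23.7% in STD and at 29.2%, 30.9% and 23.5% in ENR. Grik2, with 63 sites, was at 18.5%, 18.2% and 17.5% in STD and at 19.9%, 20.2% and 17.7% in ENR. Gria2, with 47 sites, was at 1.25%, 1.33% and 1.05% in STD and at 2.15%, 0.695% and 0.830% in ENR. The range of Grik5 reached into that of Grik3, whereas Grik5, Grik2 and Gria2 did not overlap with each other. Over 14022 genes with at least 3 body sites, 2.10% had a lower body level than Gria2 and 74.1% a lower one than Gria4.

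**Figure D1:**
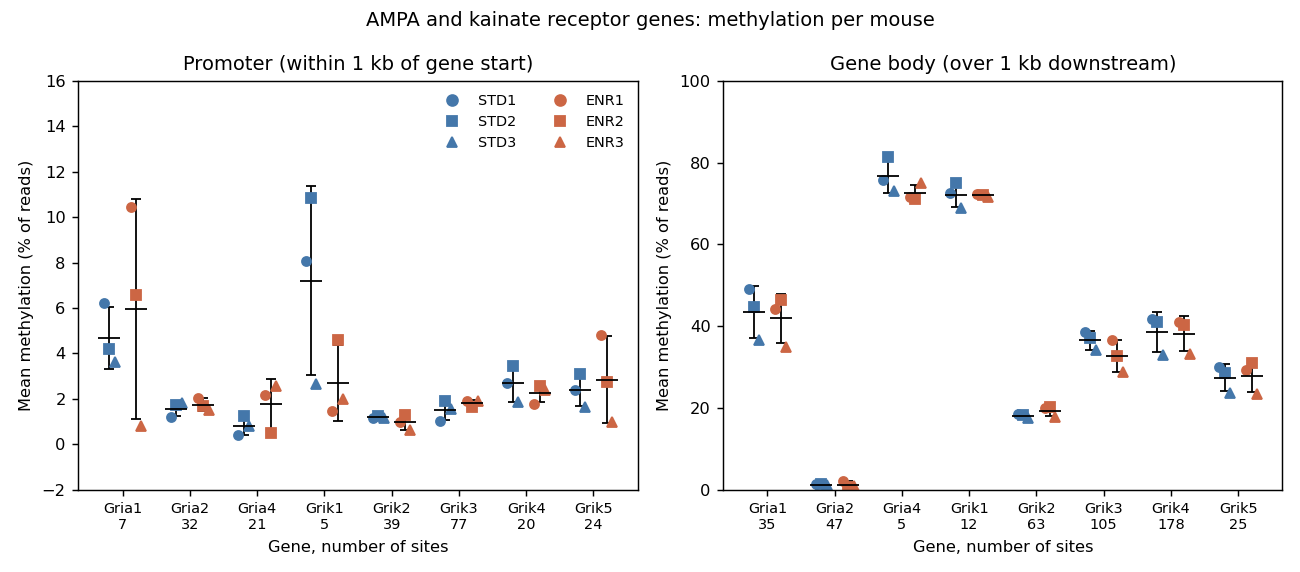
Mean methylation (percent of reads) of each gene per mouse, at sites within 1 kb of the gene start (left, axis to 16%) and further downstream (right, axis to 100%), with the number of sites under each gene name. Blue symbols are STD mice, orange symbols ENR mice, bars give the group mean and SD (n = 3), and in every gene and region the groups overlap.

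Levels rose with distance from the gene start, and the body sites that RRBS covered lay at different distances in different genes. Sites up to 1 kb upstream had a mean of 1.71% over 6 mice, and those from 0 to 1 kb downstream 1.99%. Means were 3.46% from 1 to 3 kb (4 genes, 93 sites), 14.4% from 3 to 10 kb (3 genes, 57 sites), 31.5% from 10 to 100 kb (7 genes, 145 sites) and 53.8% beyond 100 kb (6 genes, 175 sites). Within bodies, the 127 island-like sites had a mean of 5.27% and the 343 other sites a mean of 42.2%. The classes hold different genes and share libraries, so these means are descriptive.

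Several low stretches lay inside gene bodies. The 47 body sites of Gria2 all belonged to noncoding exons of the gene within its first 3 kb, in clusters at 0.983% to 3.18%, so no distant part of Gria2 was measured. In Grik2, a cluster of 15 sites in a 5' UTR, 5.44 kb from the gene start and 10 bases from another transcript start, was at 0.562%, 1.70% and 1.77% in STD and at 0.0866%, 0% and 0.763% in ENR. Grik2 held 4 clusters below 10% over 3 kb from the gene start, all near this second start. The next Grik2 cluster of 3 or more sites, in an intron 24.6 kb in, was at 85.3% over 6 mice. Single sites before it were at 32.5% (9.70 kb in) and 60.9% (24.4 kb in).

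In Grik4, 38 sites in an intron 46.6 kb from the start, 27 of them island-like, were at 5.48%, 4.04% and 1.28% in STD and at 4.37%, 3.83% and 2.14% in ENR. A further low Grik4 cluster of 5 sites lay in a coding exon 423 kb in, at 3.04% over 6 mice, and it is shared with Gm24420. An intronic Grik4 cluster of 9 sites 420 kb in was at 97.5%, the highest of all body clusters. In Grik5, 9 island-like sites in the 3' UTR were at 7.74%, 8.08% and 3.61% in STD and at 9.72%, 11.4% and 0.667% in ENR. In Grik3, the highest cluster lay in a coding exon 149 kb in and was at 92.1% over 6 mice. Of 53 body clusters with 3 or more sites, 14 had means below 10%, and 8 of all clusters below 10% lay over 3 kb from the gene start.

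**Figure D2:**
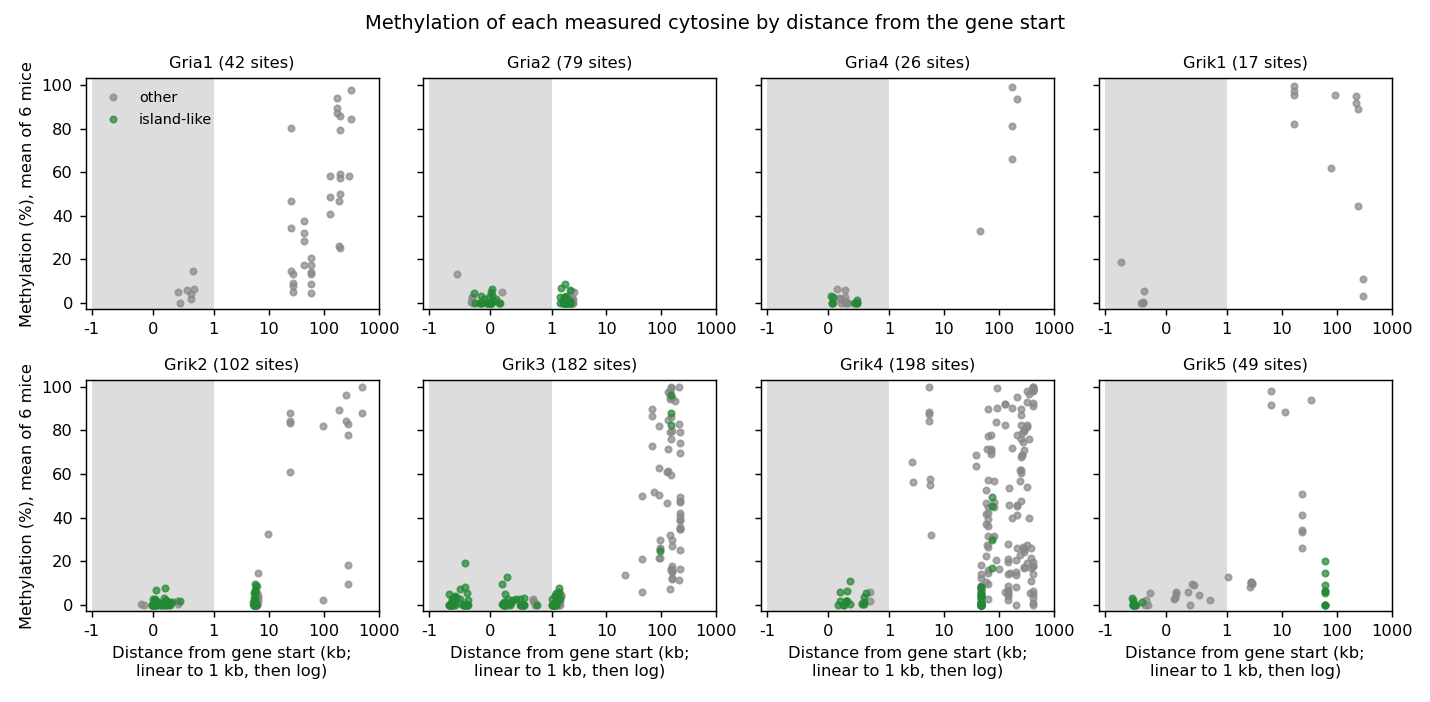
Methylation of each of the 695 cytosines (mean of 6 mice, percent) against its distance from the gene start (kb, linear within 1 kb and logarithmic beyond), in 1 panel per gene. Green points are island-like, grey points are not, and the grey band marks the promoter; the highest site in the band is at 18.9%, while downstream levels reach at least 97.8% in every gene but Gria2, where the highest is 8.81%.

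The body was more methylated than the promoter in 7 of the 8 genes, in 6 of 6 mice each. The difference, over 6 mice, was 73.4 percentage points ± 3.84 (SD, n = 6) in Gria4 and 67.2 ± 2.71 (SD, n = 6) in Grik1. It was 37.4 ± 4.22 in Gria1, 35.9 ± 3.87 in Grik4, 33.0 ± 3.74 in Grik3, 25 ± 2.56 in Grik5 and 17.6 ± 1.06 in Grik2 (SD, n = 6 each). The two-sided exact sign-flip test over mice gave p = 0.03125 for each of these 7 genes, the smallest p it allows. Gria2 was the exception, with a difference of -0.44 points ± 0.446 (SD, n = 6, exact sign-flip p = 0.125). A body above the promoter in all 6 mice was found in 80.8% of 9152 genes with at least 3 sites in each region, so the 7 genes followed the common pattern. With the median over sites in place of the mean, the difference was 0 in Grik2 and 16.3 points in Grik5 (exact sign-flip p = 0.0625), and neither then passed 0.05. With starts of all transcripts counted as promoters, so that the second start of Grik2 left its body, the difference rose to 65.9 points in Grik2 and was 6.39 points in Grik5 (exact sign-flip p = 0.03125 for each).

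The next question was whether ENR changed methylation of these genes. None of the 8 genes was called as different in any region. Nor was any of the 22934, 17950 and 14012 genes tested over whole regions, promoters and bodies. The test was limma on percentages over all genes, with Benjamini-Hochberg adjustment and a threshold of 0.05. Over whole regions, 5 genes were lower and 3 higher in ENR, with differences from -2.08 points in Grik3 to 0.647 points in Grik2. These were -0.965 points in Grik3 without ENR replicate 3, and in Grik2 0.308 points without ENR replicate 2 and 1.19 without ENR replicate 3. In some genes the size depended on which sites were averaged. Over only the sites with means of 20% to 80%, the difference was -18.8 points in Gria4 (2 sites), -9.68 in Grik3 (37 sites), -5.09 in Grik1 (2 sites), 7.85 in Grik5 (6 sites) and 10.8 in Grik2 (3 sites). Grik4, with 71 such sites, differed by only -0.506 points, and Gria1, with 17, by 1.74 points. The lowest exact permutation p-value among these was 0.1, the smallest that 3 against 3 mice allow. The share of all 22955 genes lower in ENR was 57.6%. In promoters, 3 were lower and 5 higher, against 52% of genes lower, and in bodies 5 were lower and 3 higher, against 60.4% of genes lower. Groups overlapped in all 8 genes in all 3 regions, where 8.46%, 9.47% and 7.9% of all genes did not overlap over whole regions, promoters and bodies. None of the 8 genes reached an unadjusted limma p-value under 0.05, which 3.86%, 4.39% and 3.52% of all genes did. In promoters, 1 or 2 of the 8 genes did so under some alternatives, among them leaving out 1 library. The lowest adjusted limma p-values among the 8 genes were 1.0 over whole regions, 0.993 in promoters and 1.0 in bodies.

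Single genes differed by less than or about as much as mice within a group. In the body of Grik3, STD mice were at 36.6% ± 2.28 and ENR mice at 32.7% ± 3.96 (SD, n = 3 each), a difference of -3.84 points (SE 3.30, exact permutation p = 0.2). It was -1.88 points without ENR replicate 3, -5.83 without ENR replicate 1 and -14.4 by the median over sites (exact permutation p = 0.1). In the body of Gria4 the difference was -4.15 points (SE 3.27, exact permutation p = 0.2), and it rested on 5 sites. It was -1.84 points without STD replicate 2 and -5.93 without STD replicate 3, and the median over sites gave 3.56 points. In the promoter of Grik1, STD mice were at 8.09%, 10.9% and 2.67% and ENR mice at 1.48%, 4.61% and 2%. This was the largest promoter difference, -4.50 points (SE 2.0, limma adjusted p = 0.993), and 1 of its 5 sites carried it, since the promoter within 500 bases differed by 1.36 points the other way. The difference over all 5 sites was -2.68 points without STD replicate 2, -6.77 without STD replicate 3 and 0 by the median over sites. In the promoter of Gria1, STD mice were at 6.23%, 4.21% and 3.61% and ENR mice at 10.5%, 6.57% and 0.808%, so that ENR held both the highest and the lowest mouse. The exact permutation test of 3 against 3 cannot give a p-value under 0.1.

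Single libraries decided the direction in some gene bodies. In the body of Gria1 the difference was -1.57 points with all mice, 1.86 without ENR replicate 3, 1.31 without STD replicate 1 and -5.02 without STD replicate 3. In the body of Grik4 it was -0.396 points with all mice, 2.09 without ENR replicate 3, 1.17 without STD replicate 1, 0.812 without STD replicate 2 and -3.17 without STD replicate 3. Without both libraries numbered 3 the differences were -1.59 points in Gria1, -0.683 in Grik4 and -3.13 in Grik3. Among the 8 bodies, the sign stayed the same whichever single library was left out in Gria4, Grik2 and Grik3.

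The contrast between body and promoter was also compared between groups. No gene was called (lowest limma adjusted p = 1.0 among the 8 genes), and none had an unadjusted limma p-value under 0.05, against 3.54% of all genes. Groups did not overlap in 2 of the 8 genes, against 7.57% of all genes. In Gria4 the body exceeded the promoter by 75.3, 80.1 and 72.4 points in STD and by 69.5, 70.7 and 72.4 points in ENR, a difference of -5.09 points (SE 3.15, exact permutation p = 0.1). In Grik1 it did so by 64.5, 64.1 and 66.4 points in STD and by 70.8, 67.6 and 69.6 points in ENR, a difference of 4.35 points (SE 2.91, exact permutation p = 0.1). The STD and ENR mice of Gria4 came within 1 point of each other, and both genes had few sites. In Grik1 the body differed by -0.153 points and the promoter by -4.50 points. As given above, 1 of the 5 promoter sites carried the promoter difference.

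Single cytosines were compared next. No receptor gene site was called at a limma adjusted p-value under 0.05 with group means over 25 points apart, and 0% of all 615152 sites that varied were called. The lowest adjusted p-value among the receptor gene sites was 0.852. Of the 508 sites that varied, 21 had an unadjusted p-value under 0.05, 12 of them lower in ENR, against 2.68% of all sites. By size alone, with no test, 24 of 695 sites (3.45%) had group means over 25 points apart, against 1.94% of all sites. Of these 24, 15 (62.5%) were lower and 9 higher in ENR, and 63.6% of all sites over this limit were lower. With each library left out the count was 28 to 37, and the share of all sites was not counted there. Of the 695 sites, 17 were both over 25 points apart and without overlap between groups, 11 lower and 6 higher, against 0.81% of all sites. Levels between 20% and 80% were more frequent among the receptor gene sites than among all sites, as given above, and the part of this in the count was not tested.

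The 24 sites were spread over 7 genes, with 10 in Grik4, 6 in Grik3, 4 in Gria1 and 1 each in Gria4, Grik1, Grik2 and Grik5. Gria2 had 0 such sites of 79, and 78 of its sites had means below 10%. In bodies lay 23 of the 24 sites, and none of the 24 was island-like. In Grik3 all 6 sites were lower in ENR and did not overlap between groups. In Grik4, 4 were lower and 6 higher, and in Gria1 3 were lower and 1 higher.

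**Figure D3:**
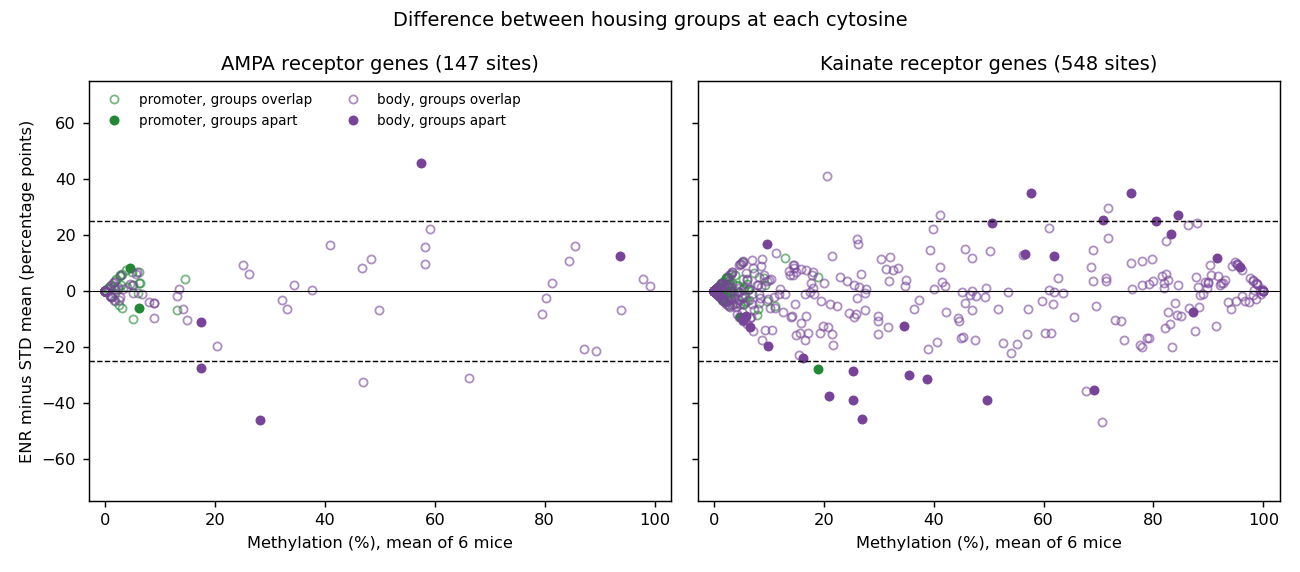
ENR minus STD difference (percentage points) of each cytosine against its mean over 6 mice (percent), for AMPA (left) and kainate (right) receptor genes. Green points lie in promoters, purple points in bodies, filled points have groups that do not overlap, and dashed lines mark 25 points; 24 sites lie beyond the lines and 1 of them is in a promoter.

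Among sites with group means over 25 points apart and no overlap between groups, those with the lowest limma p-values, at most 2 per gene, are described with their surroundings. Each of their adjusted p-values was 0.852, and their directions in part follow from choosing large differences. Sequences are the plus strand of mm10, taken with 12 bases on either side of the cluster of measured cytosines that holds the site, and capitals mark the CpGs measured by RRBS. They show how many measured CpGs stood near each differing site.

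In Gria1, the cytosine at 57055739 in an intron, 44352 bases from the gene start, was at 52.9%, 63.6% and 37.1% in STD and at 4.17%, 0% and 11.1% in ENR. The difference was -46.1 points (SE 14.4, limma adjusted p = 0.852). The only other site in its cluster was at 52.9%, 22.7% and 17.6% in STD and at 0%, 0% and 11.1% in ENR, so both cytosines were lower in each ENR mouse than in any STD mouse. A second intronic cytosine of Gria1, at 57211994, went the other way. It was at 46.5%, 32.6% and 25% in STD and at 91.7%, 61.1% and 88.2% in ENR, a difference of 45.6 points (SE 13.5, limma adjusted p = 0.852). Its cluster of 6 sites was at 67.9%, 51.5% and 39.5% in STD and at 77.3%, 53.2% and 67.3% in ENR, and these overlapped.
Gria1 chr11:57055727-57055808: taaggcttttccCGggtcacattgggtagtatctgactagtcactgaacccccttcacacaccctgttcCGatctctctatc
Gria1 chr11:57211982-57212126: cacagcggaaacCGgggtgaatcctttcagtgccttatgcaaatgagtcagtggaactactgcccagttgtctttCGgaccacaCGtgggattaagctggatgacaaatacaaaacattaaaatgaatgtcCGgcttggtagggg

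In Grik1, the minus-strand cytosine at 88290995, 730 bases upstream of the gene start, was the only promoter site with group means over 25 points apart. It was at 40.4%, 44.7% and 13.3% in STD and at 7.41%, 7.27% and 0% in ENR, a difference of -27.9 points (SE 11.9, limma adjusted p = 0.852). The other 4 promoter sites of Grik1 formed a cluster at 0%, 2.38% and 0% in STD and at 0%, 3.95% and 2.50% in ENR. The difference ran from -22.0 points without STD replicate 2 to -37.7 points without STD replicate 3, and was also under 25 points in size without STD replicate 1 (-24.1 points).
Grik1 chr16:88290983-88291007: gccacttccccCGggaaatcagcgt

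In Grik2, the cytosine at 49764151 in an intron, 24615 bases from the start, was at 66.3%, 66.7% and 80% in STD and at 93.9%, 100% and 100% in ENR. The difference of 27.0 points (SE 6.12, limma adjusted p = 0.852) had the lowest unadjusted p-value among the 695 sites. The 3 sites of its cluster together were at 81.9%, 83.3% and 86.7% in STD and at 92.6%, 85.1% and 82.5% in ENR, so the cluster did not separate the groups. The difference at the cytosine itself was 24.6 points without STD replicate 1 and 24.8 without STD replicate 2.
Grik2 chr10:49764119-49764211: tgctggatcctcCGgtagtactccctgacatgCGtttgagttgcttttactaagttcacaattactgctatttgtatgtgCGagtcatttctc

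In Grik3, the cytosine at 125645207 in an intron, 154507 bases from the start, was at 61.5%, 53.3% and 34.8% in STD and at 0%, 0% and 12.1% in ENR. The difference was -45.8 points (SE 14.3, limma adjusted p = 0.852). The cytosine at 125706036 on the minus strand, 215336 bases from the start, was at 60.7%, 28.6% and 45% in STD and at 17.2%, 0% and 0% in ENR. The difference was -39.0 points (SE 14.5, limma adjusted p = 0.852). Both had every ENR mouse below every STD mouse. The 4 other Grik3 sites over 25 points apart formed 2 pairs. At 125534674 and 125534681, in an intron, the differences were -37.5 and -38.9 points. At 125709889 and 125709945, in the 3' UTR, they were -30.0 and -31.4 points. Sites of a pair lie close enough to be read in the same fragments and are not independent.
Grik3 chr4:125645027-125645219: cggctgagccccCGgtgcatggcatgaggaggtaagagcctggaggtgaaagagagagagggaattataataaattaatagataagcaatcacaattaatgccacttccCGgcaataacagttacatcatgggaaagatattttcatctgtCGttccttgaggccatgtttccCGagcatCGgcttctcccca
Grik3 chr4:125706024-125706107: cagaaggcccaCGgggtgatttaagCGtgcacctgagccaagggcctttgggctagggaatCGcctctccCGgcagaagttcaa

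In Grik4, the differences at neighbouring cytosines had opposite signs in 1 intronic cluster 284 kb from the start. The minus-strand cytosine at 42660299 was at 81.5%, 66.7% and 55.6% in STD and at 100%, 90% and 88.9% in ENR, a difference of 25.1 points (SE 8.24, limma adjusted p = 0.852). Without STD replicate 3 it was 18.9 points, without ENR replicate 1 21.5 and without STD replicate 2 24.4. That at 42660310 differed by 25.4 points, while that at 42660253, on the plus strand, was at 55.6%, 38.5% and 25% in STD and at 11.5%, 10% and 11.8% in ENR. The latter difference was -28.6 points. The 4 sites together were at 73.0%, 60.3% and 49.6% in STD and at 71.6%, 65.0% and 65.3% in ENR. A further Grik4 cytosine, at 42874064 on the plus strand, 70429 bases from the start, was at 100%, 81.8% and 78.8% in STD and at 57.1%, 38.9% and 58.8% in ENR. Its difference was -35.3 points (SE 10.4, limma adjusted p = 0.852).
Grik4 chr9:42660241-42660322: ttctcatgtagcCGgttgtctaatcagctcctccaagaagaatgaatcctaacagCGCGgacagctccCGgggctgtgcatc
Grik4 chr9:42874019-42874076: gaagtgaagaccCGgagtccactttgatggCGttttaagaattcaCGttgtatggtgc

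**Figure D4:**
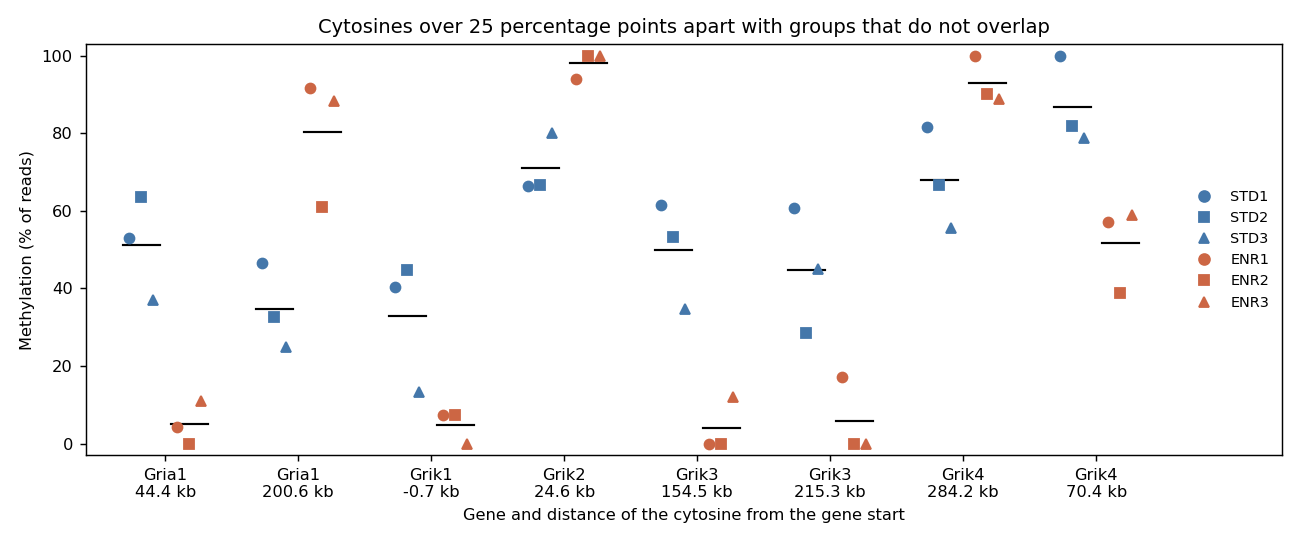
Methylation (percent of reads) of the 8 cytosines described above in each mouse, labelled by gene and distance from the gene start (kb). Symbols are mice (blue STD, orange ENR), lines are group means (n = 3), and groups do not overlap at any of the 8 because they were chosen so.

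Clusters of neighbouring cytosines were then compared. Of 66 clusters with 3 or more sites, none was called (lowest limma adjusted p = 0.998), nor was any of all 76712 clusters tested. In ENR 34 of the 66 were lower and 32 higher, against 53.8% of all clusters lower. Unadjusted limma p-values under 0.05 were found in 2 clusters, against 4.1% of all clusters. Groups did not overlap in 7, 4 of them lower, against 8.83% of all clusters. Group means were over 25 points apart in 2, against 0.53% of all clusters.

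The intronic Grik4 cluster of 3 sites from 42874031 to 42874064 was at 100%, 83.1% and 85.6% in STD and at 83.8%, 34.8% and 48.3% in ENR. Its difference of -34.0 points (SE 12.3, limma adjusted p = 0.998) was the largest of the 66, and the groups overlapped. Without ENR replicate 2 it was -23.6 points. The intronic Grik3 cluster of 3 sites from 125534664 to 125534681 was at 21.6%, 69.7% and 29.5% in STD and at 4.65%, 13.6% and 14.1% in ENR. Its groups did not overlap, and STD replicate 2 was far above the other STD mice. The difference was -29.4 points (SE 12.8, limma adjusted p = 0.998) with all mice and -14.7 points without STD replicate 2. A further Grik3 cluster of 6 sites, from 125645039 to 125645207, was at 35.2%, 21.5% and 26.2% in STD and at 15.0%, 8.33% and 10.5% in ENR, without overlap, and had the lowest unadjusted limma p-value of the clusters.

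Clusters in the AMPA receptor genes and Grik5 follow. The largest difference among Gria1 clusters of 3 or more sites was at a coding exon, at 96.6%, 100% and 98.1% in STD and at 87.6%, 97.5% and 60.9% in ENR. It was -16.2 points (SE 8.52), and -5.69 points without ENR replicate 3. The Gria4 cluster in an intron was at 86.2%, 94.8% and 78.9% in STD and at 78.5%, 74.2% and 80.4% in ENR (difference -8.92 points, SE 4.74), and its difference was -4.83 points without STD replicate 2. In Gria2, the cluster of 22 sites about 1.74 kb from the start was at 1.47%, 1.55% and 1.66% in STD and at 0.475%, 0.541% and 0.330% in ENR. These groups did not overlap, but the difference was -1.11 points (SE 0.488, limma adjusted p = 0.998). In Grik5, an intronic cluster of 5 sites was at 36.2%, 30.2% and 31.7% in STD and at 48.3%, 39.2% and 37.3% in ENR, 8.89 points higher (SE 8.22) without overlap, and 5.51 points higher without ENR replicate 1.

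Genes that work with these receptors were compared from a list of 30. It holds Gria3, the delta subunits, auxiliary subunits such as the Cacng, Shisa, Cnih and Neto families, and scaffold and trafficking proteins. All 30 had at least 3 measured sites, and none was called in any region, as was the case for all genes. Over whole regions 20 were lower and 10 higher in ENR, against 57.6% of all genes lower. The median difference was -0.742 points, against -0.217 points in the 8 receptor genes and -0.192 over all genes. The 2 lowest limma p-values belonged to the promoter of Olfm1 and the whole region of Shisa6. Olfm1, a secreted protein found with AMPA receptors, was at 2.04%, 2.19% and 2.45% in STD promoters and at 1.03%, 1.42% and 0.519% in ENR promoters (difference -1.23 points, limma adjusted p = 0.993). Shisa6, an auxiliary AMPA receptor subunit, was at 5.58%, 5.23% and 4.2% in STD and at 3.93%, 3.88% and 3.17% in ENR (difference -1.34 points, limma adjusted p = 1.0). Both had groups that did not overlap. In the list this held for 3 of 30 whole regions and 2 of 27 promoters, against 8.46% and 9.47% of all genes.

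Gria3 had a promoter mean of 23.3% over 6 mice, above the 8 receptor genes. Its 19 promoter sites were at 28.7%, 29.3% and 18.9% in STD and at 27.8%, 29.8% and 5.13% in ENR. Gria3 is X-linked, and CpG-rich promoters on the inactive X chromosome of females are generally methylated, a part in this level that was not tested. The library numbered 3 was the lowest in each group here as well.

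Other glutamate receptor families are given side by side. Median promoter levels were 2.23% in 5 measured NMDA receptor genes and 1.70% in 5 metabotropic receptor genes, and median body levels were 20.1% in 7 and 39.9% in 8 genes, against 36.5% in the AMPA and kainate receptor genes. None of these genes was called, nor was any other gene in the data set. Among 4322 genes with at least 10 sites in promoter and in body, the gene nearest to a receptor gene by its 12 promoter and body values was Bhlhe41 for Gria2, Mettl15 for Gria4 and A830018L16Rik for Grik1. It was Tsc22d1 for Grik2, Grm8 for Grik3, Msi2 for Grik4 and Wscd2 for Grik5. Among these 7, distances between profiles were smallest for Gria2 (1.13 percentage points) and largest for Grik1 (9.99), and the 12 values come from 6 libraries that all genes share.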

How the data were processed

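RRBS libraries from 6 dentate gyri, 3 STD and 3 ENR, were analysed from the deposited table. Per the submitters' processing notes, the authors used Trim Galore 0.4.0, cutadapt 1.8.1, Bismark 0.16.1 and methylKit 1.5.2 with mm10. The paper itself gives other versions of Trim Galore and Bismark. Cytosines needed at least 10 reads in each library. The deposited values are the percent of reads methylated at each CpG and library; 0 value columns of the table went unused. Read counts per site were not used here, so depth is unknown beyond that minimum. No interval that needs depth is given, and a shallow site weighs as much as a deep one. The study tested reads at each cytosine, which percentages do not allow. By that test the paper reported CpGs changed by ENR in this experiment, and it names Gria1 among the genes concerned. Differences between mice were the only error.

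Sites that varied, and means of gene regions and clusters with at least 3 sites, were tested over the whole table with limma 3.58.1 in R 4.3.3 (lmFit, eBayes with a variance trend) and Benjamini-Hochberg adjustment. Calls needed an adjusted p-value under 0.05 and, for sites, over 25 percentage points. Both strands of a CpG counted as separate sites. Single values were compared by two-sided exact permutation over the 20 regroupings (smallest p = 0.1) and body against promoter by exact sign-flips over mice. Members, gene lists and tests were chosen with earlier results of these data known. Named were all 8 genes, the extreme clusters of each gene, and at most 2 sites per gene that were over 25 points apart without overlap, by lowest limma p-value. Of the 30 related genes, the 2 lowest p-values were named. The Grik3 cluster with the lowest p-value, the 22-site Gria2 cluster, the Grik4 island-like intron, Gria3 and sites beside named ones were added after their values were seen. Scripts were tested on simulated data. Sequences are from GRCm38 and RefSeq, and the promoters of Gria1 and Grik1 were not matched. The gene nearest to Gria1 in its methylation profile is not reported here.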

Additional observations from a re-analysis of the deposited data

How the results depend on the processing

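No alternative gave a call of a receptor gene site, gene region or cluster, with smallest adjusted limma p-values of 0.375 for sites, 0.849 for promoters and 0.923 for clusters. With 3 mice per group and unknown depth these counts of 0 say little about single sites. With the replicate number as a block there were 0 calls, 24 sites, 4 clusters and 1 promoter at an unadjusted p-value under 0.05 in place of 21, 2 and 0, and a smallest adjusted p-value of 0.882 for sites. The block changed no call. Promoters at an unadjusted p-value under 0.05 were 0 to 2 with each replicate left out (1 without STD replicate 3, 2 without ENR replicate 2, 1 without ENR replicate 3) and 1 without both libraries numbered 3. The numbers are not known to pair the mice: deviations of same-numbered libraries correlated at 0.0552, 0.0319 and 0.125, and STD replicate 2 correlated best with another number. The number of sites over 25 points was 37 at a limit of 20, 5 at 40 and 37 without both libraries numbered 3, and 28 to 37 with each replicate left out. The share lower in ENR was 51.4% with group medians and 53.1% to 78.1% with each replicate left out.

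Body minus promoter was 0 points in Grik2 and 16.3 in Grik5 with medians over sites. With 5 mice the exact sign-flip test cannot pass 0.05 (smallest p = 0.0625), and leaving out each replicate gave 36.2 to 38.2 points in Gria1, 72.0 to 74.2 in Gria4, 66.4 to 67.8 in Grik1, 17.3 to 17.8 in Grik2, 32.1 to 34.2 in Grik3, 35.3 to 36.9 in Grik4 and 24.4 to 25.6 in Grik5.

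Differences between groups reversed under some settings, for which the cause was not tested. Medians over sites gave 0.101 points in Grik4 as a whole, 0.585 in its promoter and 0.244 in its body, 3.56 in the Gria4 body, 3.71 in the Grik1 body and -0.149 in the Grik5 body. Quantile normalization gave 0.371 in Gria4, 0.542 in Grik4, 0.00986 in the Grik2 promoter, 0.231 in the Grik4 promoter and 0.577 in its body. Averaged strands gave 0.591 in Gria4, -0.182 in Grik5, -0.116 in the Gria2 promoter and -0.742 in the Grik5 body. With their sign kept, medians also gave -7.46 in Gria1 and -13.4 in Grik1 as a whole and -14.4 in the Grik3 body. Sites of 20% to 80% gave 1.74 in Gria1, and the Grik1 promoter within 500 bases gave 1.36. Leaving out each replicate gave -4.06 to 2.19 in Gria1, -0.256 to 0.252 in Gria2, -0.594 to 0.609 in Gria4, -3.21 to 0.0865 in Grik1, -2.93 to 1.83 in Grik4 and -0.674 to 2.04 in Grik5. Promoters ran from -0.994 to 3.83 in Gria1, -0.0152 to 0.301 in Gria2 and -0.527 to 1.39 in Grik5. Bodies ran from -5.02 to 1.86 in Gria1, -0.448 to 0.277 in Gria2, -1.72 to 1.24 in Grik1, -3.17 to 2.09 in Grik4 and -1.42 to 2.66 in Grik5. The body clusters from 80801363 in Gria2 (1.53 with all mice), 88273443 in Grik1 (-1.84) and 49764131 in Grik2 (2.77) ran from -1.05 to 3.94, -5.53 to 1.80 and -0.164 to 4.91.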

Other observations

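The 8 Grik3 sites in the 3' UTR were at 40.1%, 50% and 35.2% in STD and at 40.1%, 21.9% and 24.5% in ENR, and the 115 Grik3 intron sites at 27.8%, 26.2% and 24.0% in STD and at 26.1%, 23.8% and 20.1% in ENR. The groups overlapped in both.

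Mice of 1 group could differ widely at a single cytosine. The Grik4 cytosine at 42856212 was at 0% in all 3 STD mice and at 51.4%, 72.2% and 0% in ENR. The Grik4 cytosine at 42598846 was at 82.8%, 83.3% and 9.09% in STD and at 88.2%, 100% and 91.7% in ENR. Both strands were measured at 73 of 622 CpGs in the 8 genes, and in the same mouse their values differed by 7.66 points on average with a median of 2.51 points.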
